A study of Mus musculus with 14 samples.

Results

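Messenger RNA of whole mouse kidney was measured in 14 libraries, and the expression of 54 cell cycle and DNA replication genes was followed across normal and obstructed kidney. The genes were taken by symbol from the 47729 genes counted in each library. They comprised 8 cyclins and kinases of the G1 phase, 12 replication genes, 4 transcription factors of the cell cycle and 30 mitotic genes. All 54 genes were found, and all 54 passed the filter on low counts, which left 17926 genes to test.

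The wild-type normal group held 3 libraries from kidneys labelled Wildtype with no treatment, and the wild-type UUO group held 4 from Wildtype kidneys at 7 days of unilateral ureteral obstruction (UUO). In UUO the ureter of one kidney is closed, and the kidney loses tubules and scars. The other 3 normal and 4 obstructed libraries carried the genotype label SMOC2 Transgenic. The promoter that drives the transgene, the strain and age of the mice in these groups and whether a library came from 1 animal were not given, so p-values reflect the variation among libraries only, some of which may be technical. A protocol attached to the samples describes folic acid injection into male Balb/c mice, which differs from the genotype and treatment labels, and the groups follow those labels.

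Totals ran from 19483994 to 30033405 counts per library. Smoc2, which encodes a secreted matrix protein, was at 12.6, 19.7 and 43.3 CPM (counts divided by scaled library size) in wild-type normal libraries 1, 2 and 3. Its level was 27.8, 26.9 and 10.6 CPM in SMOC2-labelled normal libraries 1, 3 and 4. After UUO it was at 150.4, 131, 158 and 148 CPM in the 4 wild-type libraries and at 124, 89.9, 83.9 and 87.1 CPM in the 4 SMOC2-labelled libraries. The fitted level of Smoc2 was not above wild type under the transgenic label in either state (log2 difference -0.22, adjusted p = 0.85 in normal kidney, and -0.61, adjusted p = 0.389 after UUO), and whether a transgene transcript would be counted at this gene is not given. The genotype groups are named by their label throughout.

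Cells enter division from G1 when D-type cyclins with CDK4 or CDK6 phosphorylate the RB proteins and release the E2F transcription factors. E2F factors then drive cyclin E and the genes that license and copy DNA. A later set of genes, bound by a complex of MYBL2 and MuvB proteins and by FOXM1, drives chromosome condensation, spindle assembly and cytokinesis. The tubule epithelium of healthy adult kidney divides rarely, and tubule injury is a well-known trigger of its proliferation.

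Of the 54 genes, 49 rose and 2 fell after UUO in wild-type kidney, and 50 rose and 2 fell in SMOC2-labelled kidney. A gene was said to have risen or fallen at an adjusted p under 0.05 in edgeR's quasi-likelihood test, with adjustment over all 17926 genes. UUO changed much of the transcriptome, so these counts are read against the share of all genes called. That share was 31.3% higher and 29.8% lower in wild-type kidney, and 32.5% higher and 30.4% lower in SMOC2-labelled kidney. The median log2 change of the 54 genes was 2.13 in wild-type and 2.34 in SMOC2-labelled kidney, beside medians over all genes of 0.05 and 0.04. A rise of at least 8-fold that passed the test was found for 14 of the 54 genes in wild-type kidney, where 4.46% of all genes did so, and for 22 in SMOC2-labelled kidney, where 5.48% did so. Without wild-type normal library 1 the wild-type count was 8.

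Every wild-type UUO library lay above every wild-type normal library for 49 of the 54 genes and below for 2, against 31.3% and 29.5% of all genes. In SMOC2-labelled kidney the counts were 50 above and 3 below, against 32.6% and 30.1% of all genes. The genes that fell were Ccnd1 and Ccnd3 under both labels. Tyms and Ect2 passed the test under neither label, and Mybl2 passed only in the SMOC2-labelled comparison.

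**Figure D1:**
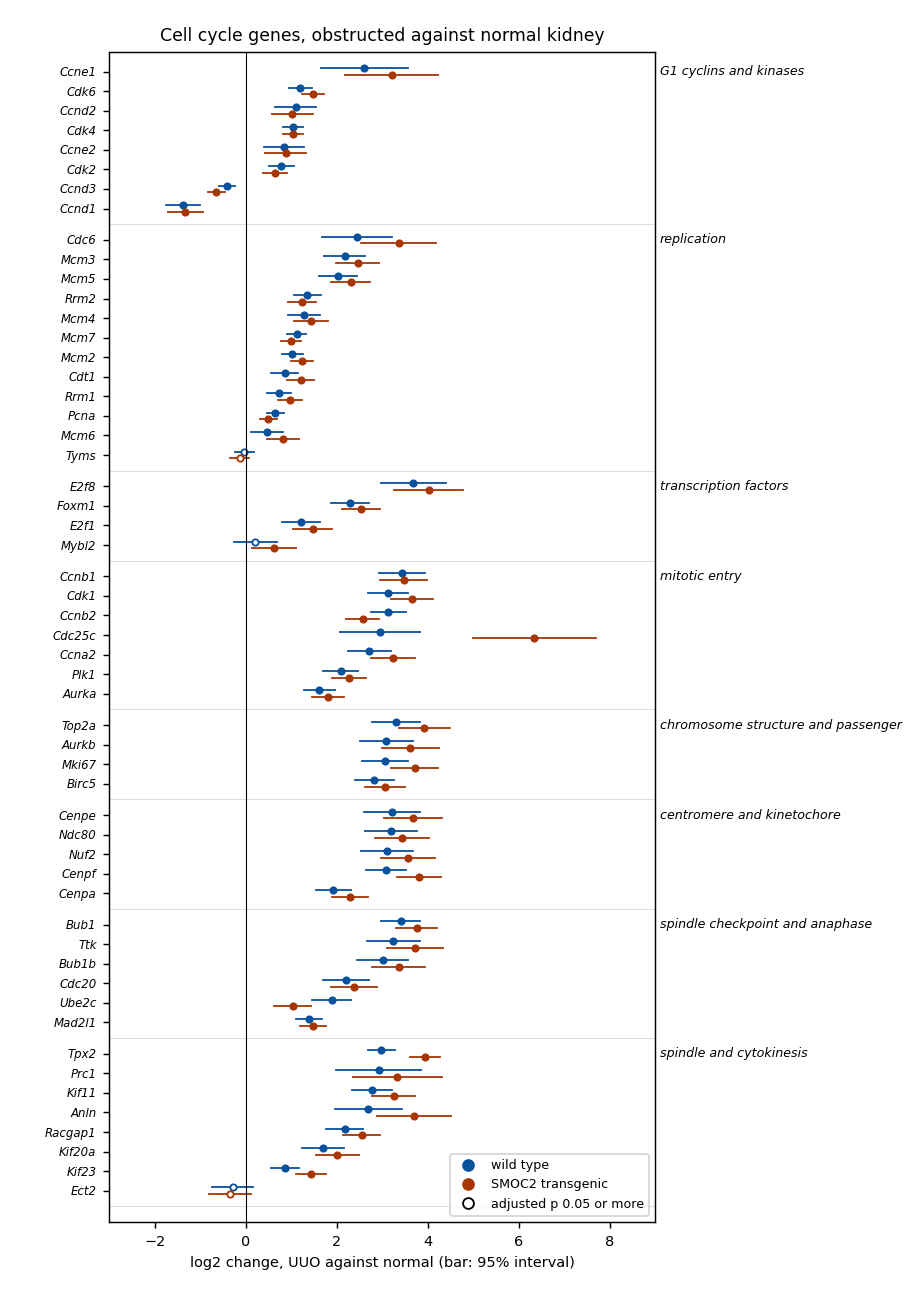
Log2 change from normal to UUO kidney (x axis) of the 54 genes (y axis, grouped by role), in wild-type kidney (blue) and SMOC2-labelled kidney (brown). Points are fitted changes, bars are 95% intervals and open points have an adjusted p of 0.05 or more; all points lie right of 0 except those of Ccnd1, Ccnd3, Tyms and Ect2.

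Whole kidney was sequenced, so more cells of a dividing type and more RNA per cell cannot be told apart. Marker levels of several cell types moved with UUO. The summed level of 10 macrophage markers was 235 to 264 CPM in wild-type normal and 2165 to 2332 CPM in wild-type UUO libraries. In SMOC2-labelled libraries it was 235 to 287 CPM in normal and 1628 to 2635 CPM in UUO kidney. The sum of 6 injured tubule markers went from 25.5 to 165 CPM in wild-type normal kidney to 1691 to 2182 CPM after UUO. That of 6 myofibroblast markers went from 176 to 375 CPM to 2134 to 3798 CPM. The sum of 8 T cell markers was 4.54 to 8.92 CPM in wild-type normal and 26.2 to 58.0 CPM in wild-type UUO libraries. The sum of 8 proximal tubule markers was 14758 to 18127 CPM in wild-type normal and 1209 to 3287 CPM in wild-type UUO libraries, and that of 7 loop, distal tubule and collecting duct markers was 9233 to 10149 CPM and 1789 to 3566 CPM. No marker of these lists was at 0 in all libraries. The part of these cell types in the changes below was not tested.

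The promoters of the gene classes, grouped by role and not by how the genes changed, differed in the share that held short motifs. RefSeq promoter windows (GRCm38.p6, 250 bases before to 50 bases after the start) were found for 44 of the 54 genes, in 48 windows of which some of the same gene overlap. They were searched on both strands for the E2F letters TTCCCGC and TTGGCGC, for the CHR letters (cell cycle genes homology region) TTTGAA and TTTAAA, and for the CCAAT box. An E2F match on one strand can share bases with a CCAAT match on the other. E2F letters lay in 8 of 12 windows of replication genes (66.7%) and in 5 of 27 windows of mitotic genes (18.5%), beside 6.81% of the 32851 promoters of the whole table. CHR letters lay in 24 of 27 mitotic windows (88.9%) and in 3 of 12 replication windows (25.0%), beside 27.6% of all promoters. A CHR and a CCAAT match were both present in 21 of 27 mitotic windows (77.8%), beside 10.7% of all. At least 1 CCAAT match was present in 22 mitotic (81.5%) and 9 replication windows (75.0%), beside 37.4% of all. The 6 windows of G1 genes came from 5 of the 8 genes, with none for Ccnd1, Ccnd2 or Ccne2. Of these 6 windows, 1 held E2F, 1 held CHR and 2 held CCAAT letters. Windows of mitotic genes had a median GC content of 59.0%, those of G1 genes 66.8%, and all promoters 52.7%. A match of letters is a description of these windows and says nothing of a factor's binding.

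The next sequences are the 250 bases upstream of the start of 8 genes, chosen to show the classes and their exceptions, written 5′ to 3′ on the gene's strand with matched letters in capitals. They are Mcm5 at chr8:75109259-75109508 (plus strand), Mcm6 at chr1:128359706-128359955 (minus), Cdt1 at chr8:122567765-122568014 (plus) and Tyms at chr5:30073626-30073875 (minus), of the replication class. The mitotic genes are Ccnb2 at chr9:70421555-70421804 (minus), Top2a at chr11:99024190-99024439 (minus), Mki67 at chr7:135716380-135716629 (minus) and Ect2 at chr3:27153879-27154128 (minus).
Mcm5: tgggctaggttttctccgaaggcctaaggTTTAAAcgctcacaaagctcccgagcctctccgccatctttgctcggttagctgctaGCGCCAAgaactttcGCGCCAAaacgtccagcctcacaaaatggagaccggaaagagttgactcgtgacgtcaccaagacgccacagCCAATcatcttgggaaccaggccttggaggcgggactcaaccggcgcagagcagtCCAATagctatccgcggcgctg
Mcm6: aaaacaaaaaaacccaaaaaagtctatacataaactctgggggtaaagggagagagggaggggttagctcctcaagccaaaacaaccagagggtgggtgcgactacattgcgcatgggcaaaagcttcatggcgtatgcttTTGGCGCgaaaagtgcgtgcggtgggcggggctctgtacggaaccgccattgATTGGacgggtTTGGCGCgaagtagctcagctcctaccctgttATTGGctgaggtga
Cdt1: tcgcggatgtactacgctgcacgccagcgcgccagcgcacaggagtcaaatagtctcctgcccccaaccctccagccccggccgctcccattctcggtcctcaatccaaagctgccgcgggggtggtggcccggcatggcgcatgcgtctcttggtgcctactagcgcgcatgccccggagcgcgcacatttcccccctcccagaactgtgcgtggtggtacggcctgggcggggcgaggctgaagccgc
Tyms: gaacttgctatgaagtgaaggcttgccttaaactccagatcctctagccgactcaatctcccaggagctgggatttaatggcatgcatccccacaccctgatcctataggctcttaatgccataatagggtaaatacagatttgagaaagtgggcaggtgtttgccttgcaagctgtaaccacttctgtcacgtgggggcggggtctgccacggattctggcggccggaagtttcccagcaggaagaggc
Ccnb2: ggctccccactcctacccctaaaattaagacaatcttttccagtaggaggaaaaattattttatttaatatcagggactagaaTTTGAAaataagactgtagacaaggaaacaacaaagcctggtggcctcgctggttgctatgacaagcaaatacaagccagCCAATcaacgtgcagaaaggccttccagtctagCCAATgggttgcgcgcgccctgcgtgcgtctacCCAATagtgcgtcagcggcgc
Top2a: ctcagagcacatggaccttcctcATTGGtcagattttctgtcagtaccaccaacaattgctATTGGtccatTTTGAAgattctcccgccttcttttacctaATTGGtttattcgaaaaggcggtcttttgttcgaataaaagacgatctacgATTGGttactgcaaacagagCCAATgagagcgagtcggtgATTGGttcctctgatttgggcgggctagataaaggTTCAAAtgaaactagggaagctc
Mki67: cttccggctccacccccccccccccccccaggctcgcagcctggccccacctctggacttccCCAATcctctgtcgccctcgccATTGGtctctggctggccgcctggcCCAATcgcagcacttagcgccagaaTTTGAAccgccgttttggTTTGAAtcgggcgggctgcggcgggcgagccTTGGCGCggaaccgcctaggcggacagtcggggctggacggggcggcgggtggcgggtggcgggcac
Ect2: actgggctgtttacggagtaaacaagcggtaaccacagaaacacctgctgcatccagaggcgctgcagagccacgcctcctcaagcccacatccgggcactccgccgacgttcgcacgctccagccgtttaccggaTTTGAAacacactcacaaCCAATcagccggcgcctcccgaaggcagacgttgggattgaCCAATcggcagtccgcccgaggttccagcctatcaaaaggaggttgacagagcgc
Mcm5 and Mcm6 each showed 2 E2F and 2 CCAAT matches, and Mcm5 also 1 CHR match. No letters matched in the printed stretches of Cdt1 and Tyms, and the 2 E2F matches in the full window of Cdt1 lay after its start. Top2a had 6 CCAAT and 2 CHR matches, Mki67 had 3 and 2, and Ccnb2 had 3 and 1. Ect2, which passed the test under neither label, had 2 CCAAT matches and 1 CHR match, so the letters were also present in a mitotic gene whose level did not pass. Tyms, which did not pass either, had none of the letters. The full windows of Nuf2, Mad2l1, E2f1, Cdk4 and Cdk6, which rose under both labels, held none either. The same was so for Mybl2, which passed only under the SMOC2 label. The windows of E2f1 and Cdk6 lay wholly inside the span that GENCODE M21 gives these genes, so the bases before that span were not searched.

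The G1 cyclins and kinases split in direction. Ccnd1 and Ccnd3, the genes of cyclins D1 and D3, fell after UUO, while Ccnd2, Cdk4, Cdk6, Cdk2, Ccne1 and Ccne2 rose. This was so under both labels, with class medians of 0.94 (wild-type) and 0.95 (SMOC2-labelled) on the log2 scale. Ccnd1, the D-type cyclin with the highest level per length in normal kidney, was at 219.97, 189 and 202 CPM in wild-type normal libraries 1 to 3 and at 63.5, 99.8, 52.9 and 96.9 CPM in wild-type UUO libraries 1 to 4. In SMOC2-labelled kidney it was at 229, 188 and 184 CPM in normal libraries 1, 3 and 4 and at 77.9, 79.2, 80.03 and 81.4 CPM in UUO libraries 1 to 4. The normal and obstructed libraries did not overlap, and the log2 change was -1.38 (SE 0.18, adjusted p = 1.27e-05) in wild-type and -1.33 (SE 0.18, adjusted p = 1.63e-05) in SMOC2-labelled kidney. UUO libraries 1 and 3 of the wild type were the lowest for Ccnd1.

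Ccnd3 was at 93.5, 90.9 and 89.9 CPM in wild-type normal and 64.3, 65, 77.7 and 68 CPM in wild-type UUO libraries. In SMOC2-labelled kidney it was at 99.8, 99.1 and 112 CPM in normal and 63.2, 71.6, 71.4 and 59.5 CPM in UUO libraries. The fitted fall was smaller than that of Ccnd1 under both labels, with log2 changes of -0.41 (adjusted p = 8.98e-04) and -0.64 (adjusted p = 1.76e-05), again without overlap. The wild-type fall of Ccnd3 rests on the scaling, with factors of 0.81 to 0.86 in normal and 1.13 to 1.20 in UUO libraries. Ccnd2, the remaining D-type cyclin, moved the other way. It was at 15.5, 18.1 and 22.7 CPM in wild-type normal and 60.3, 31.2, 33.3 and 36.4 CPM in wild-type UUO libraries, of which library 1 stood highest. The SMOC2-labelled libraries gave 14.7, 17 and 16.7 CPM in normal and 35.7, 36.9, 29.5 and 29.2 CPM in UUO kidney. Its log2 change was 1.10 (adjusted p = 3.84e-04) in wild-type and 1.02 (adjusted p = 7.32e-04) in SMOC2-labelled kidney.

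The kinases that pair with D-type cyclins both rose. Cdk4 was at 81.2, 96.1 and 91.4 CPM in wild-type normal and 205, 172, 194 and 164 CPM in wild-type UUO libraries. In SMOC2-labelled samples its values were 91.4, 98.9 and 85 CPM in normal and 191, 187, 204 and 169 CPM in UUO libraries. Cdk4 thus stood about 2.05-fold higher after UUO under both labels (log2 change 1.04 and 1.03, each with SE 0.10). Cdk6 rose from 35.7, 36.8 and 31 CPM to 79.5, 71.5, 87.9 and 78.2 CPM in the wild type and from 35.4, 33.5 and 28.5 CPM to 96.9, 104, 80.3 and 80.8 CPM under the SMOC2 label. The log2 change of Cdk6 was 1.20 (adjusted p = 7.83e-07) and 1.48 (adjusted p = 1.27e-07). Cyclin E with CDK2 acts at the entry to S phase. Ccne1 was scarce in normal kidney, at 0.132, 1.01 and 0.701 CPM in wild-type and 0.25, 0.777 and 0.312 CPM in SMOC2-labelled libraries, and at 4.09, 4.27, 3.54 and 2.78 CPM and 3.89, 4.91, 3.54 and 4.42 CPM after UUO. Every UUO library exceeded every normal one, and the log2 change of 2.60 (95% interval 1.65 to 3.56) in the wild type and 3.20 (2.18 to 4.23) under the SMOC2 label was the largest of the class. Without SMOC2-labelled normal library 3 the latter was 3.86. Ccne2 rose less, by 0.84 and 0.88, and Cdk2 by 0.79 and 0.64 on the log2 scale.

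**Figure D2:**
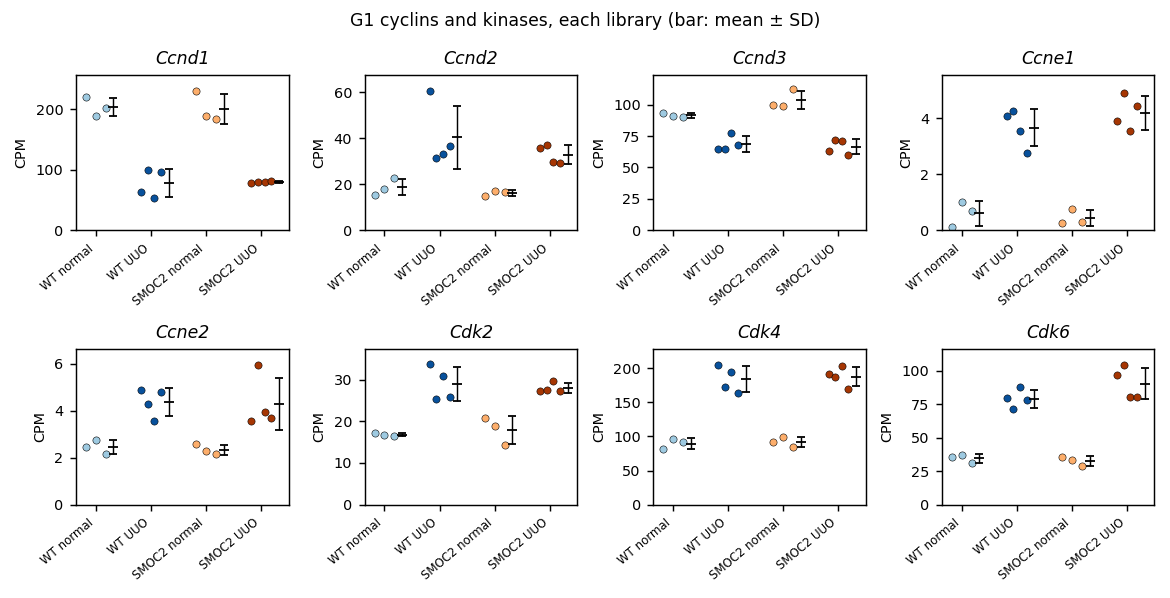
Level in CPM (y axis, from 0) of the 8 G1 cyclins and kinases in each library (points), by group (x axis); bars are mean ± SD of 3 normal or 4 UUO libraries. Ccnd1 and Ccnd3 lie lower in all UUO libraries than in all normal ones of the same label, and the other 6 genes lie higher.

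Of the 12 replication genes, 11 rose after UUO under each label. Their median log2 change was 1.07 in wild-type and 1.23 in SMOC2-labelled kidney. Cdc6 and Cdt1 load the MCM2 to MCM7 helicase onto origins. Cdc6 was at 0.705, 0.838 and 0.818 CPM in wild-type normal and 4.81, 4.14, 3.89 and 4.4 CPM in wild-type UUO libraries. In SMOC2-labelled kidney it was at 0.376, 0.999 and 0.156 CPM in normal and 3.89, 6.34, 5.41 and 5.48 CPM in UUO libraries, and normal library 4 was the lowest of all. The log2 change of Cdc6 was 2.45 (SE 0.36) in the wild type and 3.36 (SE 0.39) under the SMOC2 label, where it was 4.33 without normal library 3. Cdt1 rose from 4.45, 5.65 and 5.02 CPM to 10.1, 8.28, 9.83 and 8.29 CPM in the wild type and from 6.82, 5.88 and 6.3 CPM to 12.7, 16.9, 14.7 and 14.6 CPM under the SMOC2 label.

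The helicase subunits rose by unequal amounts. Mcm5 was at 5.69, 5.76 and 8.3 CPM in wild-type normal and 32.5, 27.2, 23.7 and 25.3 CPM in wild-type UUO libraries. Under the SMOC2 label it was at 6.7, 6.71 and 4.58 CPM in normal and 24.6, 35.7, 25.7 and 32.6 CPM in UUO libraries. The groups were far apart in both cases, with log2 changes of 2.04 (adjusted p = 7.77e-07) and 2.31 (adjusted p = 2.83e-07). Mcm3 changed by 2.18 and 2.46, Mcm4 by 1.28 and 1.44, Mcm7 by 1.12 and 0.99, and Mcm2 by 1.02 and 1.24. Mcm6 had the highest level of the 6 subunits per length in normal kidney and the smallest change. It was at 33.3, 34.9 and 35.9 CPM in wild-type normal and 52.8, 47.1, 42.8 and 49.97 CPM in wild-type UUO libraries. In SMOC2-labelled libraries, Mcm6 was at 37.8, 24.5 and 21.7 CPM in normal and 38.8, 50.7, 53.6 and 54.5 CPM in UUO libraries, so that the highest normal and the lowest UUO library were close. Its log2 change was 0.47 (95% interval 0.12 to 0.82, adjusted p = 0.0223) in wild-type and 0.82 (0.46 to 1.18, adjusted p = 6.46e-04) in SMOC2-labelled kidney. Without wild-type normal library 1 or 2 or wild-type UUO library 1 the wild-type call was lost (adjusted p = 0.0695, 0.0521 and 0.0539).

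Pcna encodes the sliding clamp of DNA polymerase. It was at 21, 20.3 and 20.6 CPM in wild-type normal and 32.8, 29.1, 33.8 and 33.9 CPM in wild-type UUO libraries, and at 22.5, 22.3 and 23.8 CPM and 29.97, 36.8, 31.9 and 30.2 CPM under the SMOC2 label. Its rise was small but larger than the spread, at 0.65 (SE 0.09, adjusted p = 1.87e-05) and 0.49 (SE 0.09, adjusted p = 2.10e-04) on the log2 scale. Rrm1 and Rrm2 encode the subunits of ribonucleotide reductase, which makes deoxynucleotides. Rrm2 was at 6.61, 6.15 and 8.3 CPM in wild-type normal and 17.1, 18.8, 17.9 and 18.2 CPM in wild-type UUO libraries. In SMOC2-labelled samples it was at 9.45, 7.99 and 8.75 CPM and 17.3, 24.6, 18.5 and 22.1 CPM. Its log2 change was 1.35 and 1.24, and that of Rrm1 0.73 and 0.97. Thymidylate synthase, Tyms, stood apart from the rest of the class. It was at 16.7, 20.6 and 16.1 CPM in wild-type normal and 18.9, 17.2, 16.3 and 17 CPM in wild-type UUO libraries, which overlapped. Under the SMOC2 label the values of Tyms were 19.97, 19.9 and 20.9 CPM in normal and 17.4, 19.8, 18.5 and 18.4 CPM in UUO libraries, with every UUO library just below every normal one. That order rests on the scaling, with factors of 0.80 to 0.82 in these normal and 1.13 to 1.16 in these UUO libraries. The log2 change of Tyms was -0.03 (95% interval -0.24 to 0.17, adjusted p = 0.777) and -0.13 (-0.34 to 0.08, adjusted p = 0.256), so a 2-fold rise lay outside both intervals.

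Of the 4 transcription factors, E2f1, E2f8 and Foxm1 rose under both labels. E2f1, an activating E2F factor, was at 3.48, 3.35 and 3.62 CPM in wild-type normal and 8.3, 9.05, 7.25 and 7.99 CPM in wild-type UUO libraries. In the SMOC2-labelled groups it was at 2.19, 4.27 and 3.44 CPM in normal and 7.69, 10.7, 8.7 and 9.7 CPM in UUO libraries. E2f1 changed by 1.22 (adjusted p = 8.20e-05) and 1.47 (adjusted p = 1.66e-05) on the log2 scale. E2f8, a repressive E2F factor, had the largest change of the 54 genes in the wild type, 3.69 (SE 0.34), from 0.37 ± 0.085 CPM (SD, n = 3) to 4.89 ± 0.746 CPM (SD, n = 4), and 4.02 (SE 0.35) under the SMOC2 label. Foxm1 was at 1.85, 2.52 and 3.43 CPM in wild-type normal and 12.6, 13.9, 12.2 and 12.4 CPM in wild-type UUO libraries. In SMOC2-labelled kidney Foxm1 was at 2.88, 3.27 and 3.18 CPM in normal and 16.2, 23.1, 17.3 and 16.2 CPM in UUO libraries, of which library 2 was the highest. Its log2 change was 2.29 (adjusted p = 2.67e-07) and 2.54 (adjusted p = 1.03e-07).

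Mybl2, the MYB factor that joins the MuvB complex, behaved otherwise. It was at 4.45, 3.97 and 2.61 CPM in wild-type normal and 4.45, 3.67, 4.56 and 4.27 CPM in wild-type UUO libraries, which overlapped. Its SMOC2-labelled values were 2.75, 3.94 and 2.24 CPM in normal and 3.95, 5.27, 4.21 and 4.95 CPM in UUO kidney, where the lowest UUO library only just exceeded the highest normal one. The log2 change was 0.21 (95% interval -0.27 to 0.68, adjusted p = 0.433) in wild-type and 0.62 (0.14 to 1.11, adjusted p = 0.0268) in SMOC2-labelled kidney. The latter call was lost without SMOC2-labelled normal library 1 or 4 (adjusted p = 0.0808 and 0.129) and without UUO library 2 or 4 (adjusted p = 0.0661 and 0.0548).

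Of the 30 mitotic genes, 29 rose under each label, with median log2 changes of 2.94 in wild-type and 3.35 in SMOC2-labelled kidney. The 7 genes of mitotic entry all rose under both labels. Cdk1, the kinase that starts mitosis, was at 1.5, 2.52 and 2.18 CPM in wild-type normal and 19.6, 16.3, 16.7 and 19.6 CPM in wild-type UUO libraries. In SMOC2-labelled kidney it was at 1.57, 2.0 and 1.04 CPM in normal and 17.1, 21.6, 19.3 and 19.1 CPM in UUO libraries. Cdk1 was 8.76-fold higher after UUO in wild-type (log2 SE 0.20, adjusted p = 3.64e-08) and 12.5-fold higher in SMOC2-labelled kidney (log2 SE 0.21, adjusted p = 1.61e-08). Cyclin B1 is the partner that activates it. Ccnb1 was at 0.485, 0.447 and 0.428 CPM in wild-type normal and 5.06, 4.95, 4.95 and 4.79 CPM in wild-type UUO libraries, and at 0.564, 0.777 and 0.312 CPM and 5.29, 6.26, 6.08 and 6.86 CPM under the SMOC2 label. The spread was narrow in the wild type, and the log2 change was 3.43 (SE 0.24) and 3.47 (SE 0.24).

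Ccnb2, the other B-type cyclin, changed by 3.13 and 2.57 on the log2 scale, and Ccna2, cyclin A2, by 2.72 and 3.23. Plk1, a kinase of centrosome maturation and mitotic entry, was at 1.37, 1.73 and 1.75 CPM in wild-type normal and 7.22, 6.66, 7.67 and 5.9 CPM in wild-type UUO libraries. In SMOC2-labelled libraries it was at 2.32, 2.33 and 1.67 CPM in normal and 8.68, 10.9, 10.2 and 10.8 CPM in UUO libraries. The log2 change of Plk1 was 2.08 (adjusted p = 2.52e-07) and 2.27 (adjusted p = 1.06e-07), and that of the centrosomal kinase gene Aurka 1.62 and 1.82. Cdc25c, the phosphatase that activates CDK1, was the scarcest of the 54 genes. It was at 0.0882, 0.279 and 0.273 CPM in wild-type normal and 1.58, 2.22, 1.13 and 1.75 CPM in wild-type UUO libraries (log2 change 2.95, SE 0.41). In SMOC2-labelled kidney 1 count was found over the 3 normal and 215 over the 4 UUO libraries, a ratio of 104 per scaled library size with an exact 95% counting interval of 18.4 to 4115, which covers counting error only. The fitted log2 change of 6.34 rested on that single count and was 8.6 without SMOC2-labelled normal library 1 and 5.58 with limma-voom.

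All 4 genes of chromosome structure and of the chromosomal passenger complex rose under both labels. Mki67, whose protein coats mitotic chromosomes and is the usual proliferation marker, was at 5.82, 6.65 and 11.9 CPM in wild-type normal and 69.5, 78.7, 58.6 and 67.2 CPM in wild-type UUO libraries. Under the SMOC2 label Mki67 was at 6.51, 7.44 and 4.79 CPM in normal and 72.8, 94.7, 70.6 and 89.3 CPM in UUO libraries. It was 8.35-fold (adjusted p = 1.06e-07) and 13.1-fold higher (adjusted p = 3.19e-08). Top2a, topoisomerase II alpha, was at 3.84, 4.7 and 5.92 CPM in wild-type normal and 46.9, 50.3, 45.8 and 48.3 CPM in wild-type UUO libraries. In SMOC2-labelled samples the values of Top2a were 5.32, 3.22 and 1.93 CPM in normal and 47.1, 64.5, 42.9 and 55.5 CPM in UUO libraries. Its change was 9.88-fold (adjusted p = 1.05e-07) and 15.2-fold (adjusted p = 3.74e-08). The passenger genes Aurkb and Birc5 (survivin) changed by 3.09 and 2.83 in the wild type and by 3.62 and 3.07 under the SMOC2 label, on the log2 scale.

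All 5 centromere and kinetochore genes rose under both labels. Ndc80 and Nuf2, subunits of the complex that holds microtubules, changed by 3.20 and 3.10 in wild-type and by 3.44 and 3.57 in SMOC2-labelled kidney. The kinetochore motor Cenpe changed by 3.22 and 3.68, and Cenpf by 3.09 and 3.81. Cenpa, the centromeric histone H3 variant, changed less, by 1.93 (SE 0.18) and 2.29 (SE 0.18). All 6 genes of the spindle checkpoint and anaphase rose as well. The checkpoint kinase genes Bub1 and Ttk changed by 3.41 and 3.24 in the wild type and by 3.76 and 3.72 under the SMOC2 label. Bub1b changed by 3.02 and 3.36, and Mad2l1 by 1.39 and 1.48. Cdc20, the activator of the anaphase promoting complex, was at 1.32, 2.57 and 2.34 CPM in wild-type normal and 7.29, 10.2, 11.9 and 8.93 CPM in wild-type UUO libraries. In SMOC2-labelled kidney Cdc20 was at 2.69, 2.33 and 2.34 CPM in normal and 10.5, 15.1, 12.4 and 13.1 CPM in UUO libraries. The log2 change was 2.21 (adjusted p = 1.91e-06) and 2.38 (adjusted p = 8.87e-07). Ube2c, the ubiquitin-conjugating enzyme of that complex, changed by 1.89 (SE 0.20) in the wild type and 1.03 (SE 0.19) under the SMOC2 label.

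Of the 8 spindle and cytokinesis genes, 7 rose under each label. Tpx2, a spindle assembly factor, went from 2.16, 2.46 and 2.38 CPM to 18.4, 17.4, 19.7 and 18.1 CPM in the wild type and from 1.19, 1.66 and 1.25 CPM to 19, 24.2, 19.1 and 22.2 CPM under the SMOC2 label, and had the smallest p of the 54 genes in both (adjusted p = 5.45e-09 and 2.20e-09). The kinesin genes changed by unequal amounts, Kif11 by 2.78 and 3.25, Kif20a by 1.69 and 2.01 and Kif23 by 0.87 and 1.43. Racgap1, a partner of Kif23 in centralspindlin, changed by 2.17 and 2.55. Prc1, which bundles midzone microtubules, changed by 2.92 and 3.33, and anillin, Anln, by 2.69 and 3.70. Without SMOC2-labelled normal library 1 the SMOC2-labelled values of Prc1 and Anln were 4.24 and 4.49. Ect2, the exchange factor that activates RhoA for cytokinesis, was the exception. It was at 17, 14.6 and 9.74 CPM in wild-type normal and 10.3, 10.5, 10.4 and 13.9 CPM in wild-type UUO libraries. In the SMOC2-labelled groups it was at 19.6, 12.5 and 15.1 CPM in normal and 11.9, 16.1, 10.5 and 11.1 CPM in UUO libraries. The groups overlapped under both labels, and the log2 change of -0.29 (95% interval -0.74 to 0.17) and -0.34 (-0.80 to 0.11) did not pass the test (adjusted p = 0.256 and 0.168).

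**Figure D3:**
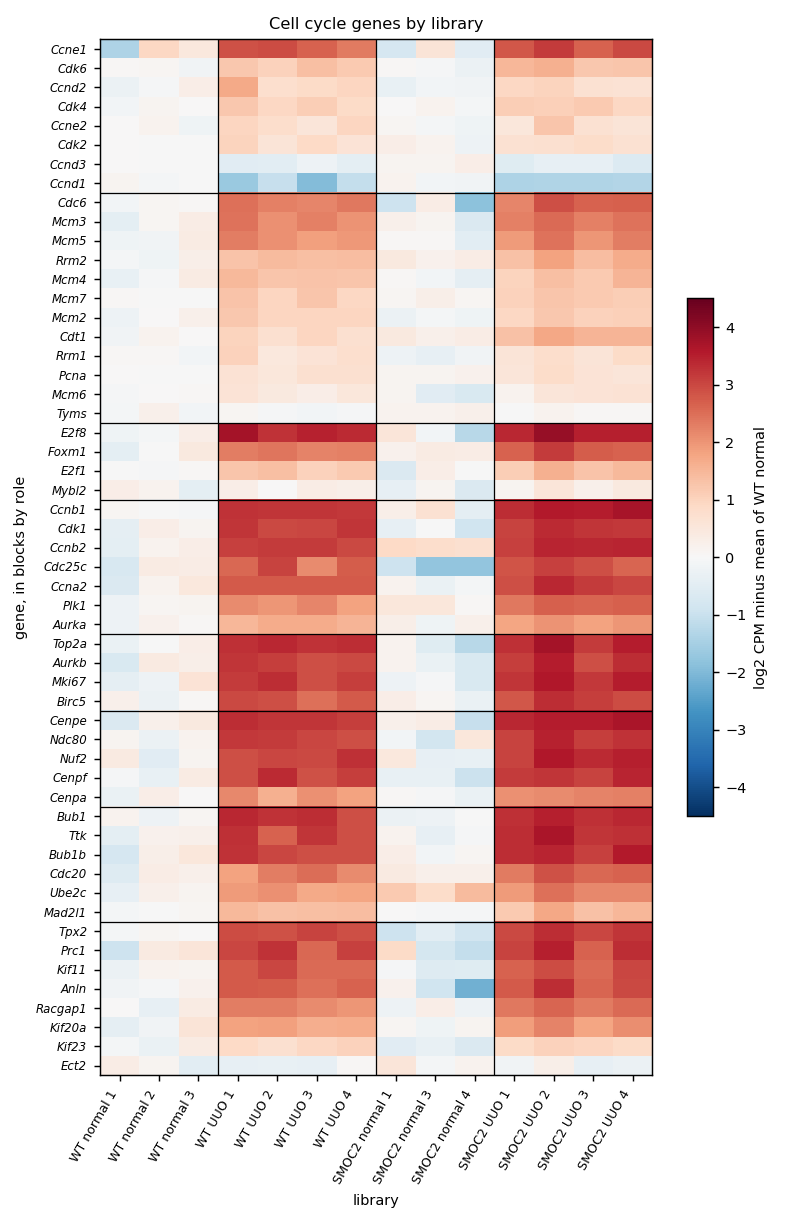
Log2 CPM of each of the 54 genes (y axis, in blocks by role) in each of the 14 libraries (x axis), less the mean of the 3 wild-type normal libraries; red is higher and blue lower. The UUO columns are red for most genes that rose and blue for Ccnd1. Genes with small changes stay pale under both labels, among them Ccnd3, Mcm6, Mybl2, Tyms and Ect2.

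The medians over each class kept normal and UUO libraries apart. Relative to the mean of wild-type normal libraries, the median of the mitotic genes was -0.28 to 0.21 in wild-type normal and 2.66 to 2.93 in wild-type UUO libraries on the log2 CPM scale. Under the SMOC2 label it was -0.31 to 0.15 in normal and 2.94 to 3.33 in UUO libraries. The median of the replication genes lay at 0.95 to 1.24 in wild-type UUO and 1.02 to 1.31 in SMOC2-labelled UUO libraries, and that of the G1 genes at 0.77 to 1.10 and 0.68 to 1.03. The median of the transcription factors was 1.64 to 1.89 in wild-type UUO and 1.88 to 2.37 in SMOC2-labelled UUO libraries. SMOC2-labelled UUO library 2 was the highest of its group for 42 of the 54 genes, and wild-type normal library 1 was the lowest of its group for 33.

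**Figure D4:**
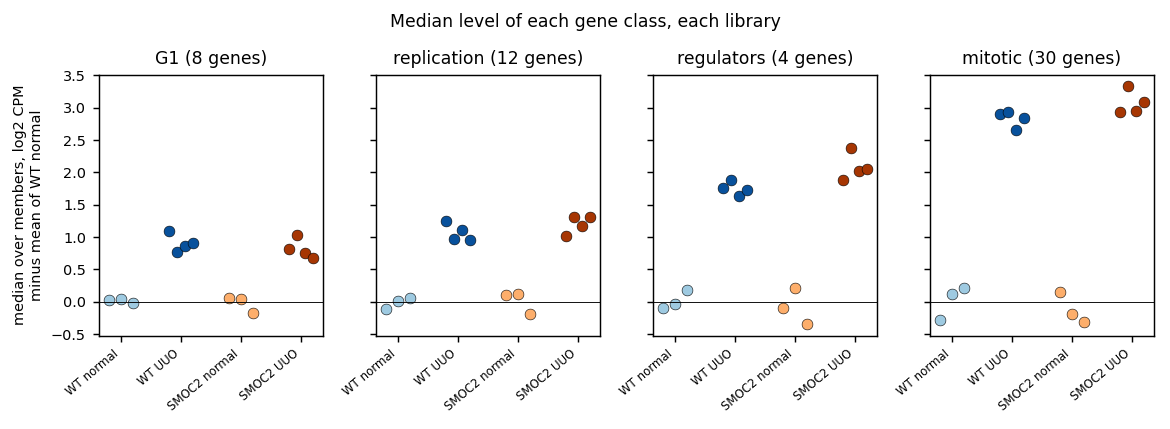
Median over the genes of each class (panels) of log2 CPM less the mean of the wild-type normal libraries (y axis), in each library (points) by group (x axis). The mitotic medians of the UUO libraries lie between 2.66 and 3.33, and those of the G1 genes between 0.68 and 1.10.

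Per kilobase of exon, the order of the levels changed with UUO. In wild-type normal kidney Ccnd1 was first of the 54 genes with 43.2 CPM per kb (40.1 to 46.7 over libraries), followed by Cdk4 with 27.6 (25.0 to 29.6), and these ranges did not overlap. Ccnd3 (10.4), Pcna (8.59) and Mcm6 (7.44 CPM per kb) came next. In wild-type UUO kidney Cdk4 was first with 56.6 CPM per kb (50.5 to 63.2) and Ccnd1 was second with 16.6 (11.2 to 21.2). Ccnd1 and Pcna (13.5, 12.1 to 14.1 CPM per kb) were neighbours whose ranges overlapped, as did those of Mcm7 (10.6) and Mcm6 (10.3). Mki67 moved from rank 25 with 0.808 CPM per kb to rank 10 with 6.81, and Cdc25c was last in all groups, at 0.0434 CPM per kb in wild-type normal and 0.34 in wild-type UUO kidney.

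A further 97 genes of the same pathways, listed by function, changed less uniformly. In wild-type kidney 58 rose, 6 fell and 33 did not pass the test, with a median log2 change of 0.44. Of all genes tested 31.3% rose and 29.8% fell, with a median of 0.0455. In SMOC2-labelled kidney 60 rose and 9 fell, with a median of 0.46, where 32.5% of all genes rose and 30.4% fell. Of 8 CDK inhibitor genes, 5 rose in the wild type. Cdkn1a (p21), an inhibitor induced by p53, went from 16.9 ± 5.97 CPM (SD, n = 3) to 52.7 ± 5.87 CPM (SD, n = 4), a log2 change of 1.65 (SE 0.25, adjusted p = 5.73e-05). Cdkn3 changed by 2.56, Cdkn2b (p15) by 1.39 and Cdkn2d by 0.68. Cdkn2a had 1 count over the 3 wild-type normal and 61 over the 4 wild-type UUO libraries (adjusted p = 2.02e-04), a ratio of 37 with an exact 95% counting interval of 6.4 to 1485. Cdkn2c (0.27, adjusted p = 0.0645), Cdkn1c (-0.25, adjusted p = 0.221) and Cdkn1b (-0.12, adjusted p = 0.346) did not pass in the wild type. In SMOC2-labelled kidney 6 rose and 1 fell, with Cdkn2c higher by 0.53 (adjusted p = 0.00164) and Cdkn1c lower, at -0.44 (adjusted p = 0.0361).

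Of 15 RB family, E2F and MuvB genes, 7 rose and 4 fell under each label. The repressor E2f7 changed by 2.88, while Rb1 (-0.74) and the MuvB subunit gene Lin52 (-0.98) fell. Of 15 origin licensing and helicase genes 11 rose in the wild type and 10 under the SMOC2 label, and none fell. Gins2 (1.95), Dbf4 (1.70) and Cdc7 (1.78) had the smallest p-values in the wild type. Of 22 polymerase and fork genes 16 rose and 1 fell in the wild type, and 15 rose and 2 fell under the SMOC2 label. Among those that rose, Lig1, DNA ligase I, changed by 1.65 and Pola1 by 1.39 in the wild type. Of 16 condensin and cohesin genes 11 rose and 1 fell under each label, with Espl1 (separase) in the wild type at 2.69, Ncaph at 2.65 and Ncapg2 at 1.99. Of 13 genes listed with the anaphase promoting complex, 4 rose in the wild type, close to the share over all genes. Among them were Anapc2 (0.33), Anapc4 (0.39) and Fbxo5 (0.93), of which Fbxo5 is not a subunit. Under the SMOC2 label 7 of the 13 rose, and none fell in either case. Of 8 checkpoint kinase and CDC25 genes 4 rose in the wild type, with Pkmyt1 at 2.60, Chek1 at 2.20 and Cdc25b at 0.82, and 4 rose and 1 fell under the SMOC2 label. The lists of CDK inhibitors, RB family genes and checkpoint kinases are short, and their counts exceeded the share of all genes that rose by few genes.

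The 54 genes were next compared in their response to UUO under the 2 labels. The 2 UUO comparisons share no library. Across the 54 genes, which are not independent replicates, their log2 changes had a Pearson correlation of 0.939 and a Spearman correlation of 0.947. The call was the same for 53 genes, with Mybl2 the exception. The log2 change was larger under the SMOC2 label for 43 genes, beside 9212 of all 17926 genes. How far this count depends on single libraries was not tested. The difference between the 2 responses was tested by the interaction of genotype label and UUO, in which 0 of the 54 genes passed, where 0% of all genes did. At an unadjusted p under 0.05 there were 6 genes, beside 1154 of all 17926. DESeq2 and limma-voom also called 0 of the 54. The 3 smallest p-values belonged to Tpx2 (log2 difference of responses 0.96, 95% interval 0.54 to 1.38, adjusted p = 0.483), Cdc25c (3.39, 95% interval 1.43 to 5.35, adjusted p = 0.57) and Ube2c (-0.86, 95% interval -1.44 to -0.28, adjusted p = 0.615). The value of Cdc25c rested on its single count in SMOC2-labelled normal kidney and ranged from 2.87 to 5.65 over left-out libraries, the highest without SMOC2-labelled normal library 1.

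Between the genotype labels after UUO, 1 of the 54 genes passed, where 0.831% of all genes did. Cdt1, the origin licensing factor, was at 10.1, 8.28, 9.83 and 8.29 CPM in wild-type UUO libraries 1 to 4 and at 12.7, 16.9, 14.7 and 14.6 CPM in SMOC2-labelled UUO libraries 1 to 4. All 4 SMOC2-labelled libraries lay above all 4 wild-type libraries. The log2 difference was 0.69 (SE 0.12, 95% interval 0.42 to 0.95, adjusted p = 0.0229). The call was lost without wild-type UUO library 2 or 4 (adjusted p = 0.0546 and 0.0636), without SMOC2-labelled UUO library 2 or 3 (adjusted p = 0.0765 and 0.0599), and when only these groups were fitted (adjusted p = 0.0621). Next by p were Plk1 (0.56, adjusted p = 0.0857) and Foxm1 (0.51, adjusted p = 0.141), which DESeq2 called and, for Plk1, limma-voom too.

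The fitted difference between the labels was above 0 for 47 of the 54 genes after UUO, against 48.4% of all genes tested, and the median was 0.18. It was above 0 for 30 of 30 mitotic, 9 of 12 replication and 4 of 8 G1 genes. Every SMOC2-labelled UUO library exceeded every wild-type UUO library for 8 genes, against 5.42% of all genes. These were Cdt1, Foxm1, Plk1, Aurka, Ccna2, Ccnb1, Racgap1 and Cenpe. Without SMOC2-labelled UUO library 2, in which most of the 54 genes were the highest of the group, the fitted difference was above 0 for 41 genes. The macrophage marker sum, at 2165 to 2332 CPM in wild-type and 1628 to 2635 CPM in SMOC2-labelled UUO libraries, overlapped between the labels. The sum of 6 B cell and plasma cell markers was 6.18 to 13.3 CPM in wild-type and 13.6 to 41.2 CPM in SMOC2-labelled UUO libraries. Of these 6 markers 0 passed between the labels, and 2 had an unadjusted p under 0.05. Of 7 markers of the loop, distal tubule and collecting duct, 0 passed between the labels after UUO, with a median log2 difference of -0.52. At an unadjusted p under 0.05 there were 2716 of all 17926 genes and 5 of these 7 markers. Their sum was 1789 to 3566 CPM in wild-type and 1694 to 2514 CPM in SMOC2-labelled UUO libraries. The part of these cells in the differences was not tested.

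**Figure D5:**
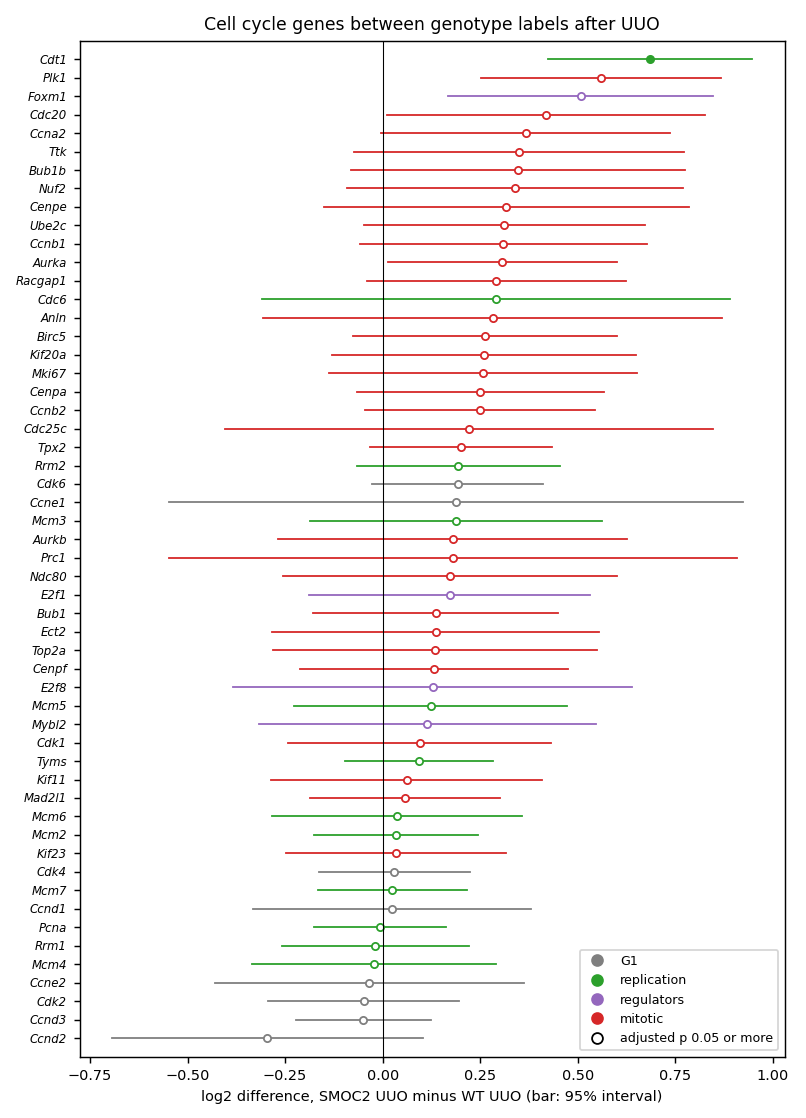
Log2 difference between SMOC2-labelled and wild-type UUO kidney (x axis) for each of the 54 genes (y axis, in order of size), coloured by class, with 95% intervals; the filled point has an adjusted p under 0.05. Cdt1 alone is filled, and 47 points lie right of 0.

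In normal kidney 0 of the 54 genes passed between the labels in edgeR's test, where 0.0279% of all genes did. At an unadjusted p under 0.05 there were 7 genes, beside 2299 of all 17926. DESeq2 called 1 of the 54 and limma-voom 0. The smallest p belonged to Ube2c, at 2.07, 3.24 and 3.0 CPM in wild-type normal libraries and 6.26, 4.94 and 7.45 CPM in SMOC2-labelled normal libraries, which did not overlap. Its log2 difference was 1.17 (95% interval 0.71 to 1.62, adjusted p = 0.0974), and it was the gene that DESeq2 called (adjusted p = 2.9e-04). Tpx2 followed with -0.76 (adjusted p = 0.162) and Ccnb2 with 0.81 (adjusted p = 0.176), so that mitotic genes were found in both directions. The fitted difference was below 0 for 36 of the 54 genes, against 50.7% of all genes, and for 24 without wild-type normal library 3. The injured tubule marker sum was 25.5 to 165 CPM in wild-type normal and 280 to 361 CPM in SMOC2-labelled normal libraries, without overlap. Of its 6 markers 0 passed, 1 had an unadjusted p under 0.05 and 2 had a fitted difference below 0. The median log2 difference of the 6 was 0.17, and their part in the values of the 54 genes was not tested.

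Some counts are uncertain because the strand setting of the counting is not given. Exons of another gene on the opposite strand cover 29.3% of the exon length of Kif20a (Cdc23), 23.4% of Ccnd1 (LTO1), 22.8% of Ube2c (Tnnc2), 19.7% of Cdk4 (Tspan31), 17.4% of Ccne2 (Ints8), 12.7% of Cdc25c (Gm3550), 12.5% of Ccna2 (Exosc9), 11.2% of E2f8 (Gm2788) and 11.1% of Prc1 (Rccd1). For Ccne2 the partner Ints8 had 11007 counts over all libraries, beside 1225 for Ccne2 itself, while Tnnc2 had 1 count beside 3025 for Ube2c. Reads of Pcna and Ccnb2 may be shared with pseudogenes, of which Pcna-ps2 had 1527 and Ccnb2-ps 904 counts over all libraries.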

How the data were processed

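Per the labels' protocols, total RNA from frozen kidney was sequenced after a stranded mRNA library preparation. Each deposited file gives raw read counts by gene, which the authors had not normalized. STAR 2.4.1d, featureCounts 1.4.4 (Subread) and build mm10 are named in the submitters' processing notes. For annotation and strand setting, nothing is given in the sources used here. GENCODE M21 of that build matched 47310 of 47729 genes. Groups follow the labels.

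edgeR 4.0.16 (R 4.3.3) kept 17926 genes by filterByExpr on the 4 groups, scaled counts by trimmed mean of M-values, fitted group means to all 14 libraries and ran its quasi-likelihood test. P-values were adjusted by Benjamini and Hochberg over the whole table, with 0.05 as the threshold. CPM uses scaled library sizes. The scripts were tested on simulated data.

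The 54 genes, the pathway lists and the marker lists were chosen with earlier results of these data known. Any of the 54 could be named. Values in every library were given for 18 genes of the main steps of the cycle and for those that fell or did not pass under a label. Genotype comparisons name the genes that passed and the 3 with the smallest p. Of each pathway list the 3 genes with the smallest p in wild-type UUO and all CDK inhibitors were named. One gene that this rule would name is not reported here. Further genes among the 54 were given by library where a genotype comparison or a limit turned on them.

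The alternatives tried were 2 other scalings (median-ratio, upper-quartile), no filter or one of 50 counts in 3 libraries, DESeq2 1.42.0, voom in limma 3.58.1, a block for the replicate number, a fit of only the groups compared, and leaving out each library.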

Additional observations from a re-analysis of the deposited data

Results flagged for a closer look

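In 7 of 108 checks, 1 library of a group of 4 stood apart from the other 3 by more than Dixon's 95% critical share of the group's range, where chance alone gives about 1 in 20. SMOC2-labelled UUO library 2 was apart on the high side for 3 genes. Ccne2 was at 5.94 CPM there, beside 3.55 to 3.92 CPM in the other libraries of the group. E2f8 was at 6.74 CPM, beside 4.67 to 4.99 CPM. Foxm1 was at 23.1 CPM, beside 16.2 to 17.3 CPM. In the same group Cdk2 was at 29.7 CPM in library 3, beside 27.2 to 27.6 CPM, and Ccnb2 was at 11.1 CPM in library 1, beside 13.6 to 14.1 CPM. In wild-type UUO kidney Mcm2 was at 39.9 CPM in library 1, beside 33.5 to 34.2 CPM, and Ect2 was at 13.9 CPM in library 4, beside 10.3 to 10.5 CPM.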

How the results depend on the processing

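Under every alternative, 48 or 49 of the 54 genes rose and 2 fell after UUO in wild-type kidney, and 49 or 50 rose and 2 fell in SMOC2-labelled kidney. Left-out libraries gave 8 to 16 genes at least 8-fold higher in the wild type. In the genotype comparison after UUO, DESeq2 called 3 genes, limma-voom 2, a fit of only the groups compared 0, and left-out libraries 0 to 1. In normal kidney DESeq2 called 1. The log2 change of Tyms in wild-type UUO turned to 0.0786 with upper-quartile scaling and ranged from -0.102 to 0.0812 over left-out libraries, the last without wild-type normal library 2. Over all genes, upper-quartile scaling shifted the median log2 change to 0.16 in wild-type UUO (6541 genes higher and 4514 lower) and to 0.15 under the SMOC2 label (6805 and 4609). Changes smaller than that depend on which scaling is used. The scaling factors of the main fit were 0.80 to 0.86 in normal and 1.13 to 1.20 in UUO libraries. Small changes, such as those of Ccnd3 in the wild type and of Tyms, therefore rest on the scaling itself. A fit without scaling factors was not tried. DESeq2 called 750 genes between the labels after UUO and 174 in normal kidney, beside 149 and 5 in the main test. With the replicate number as a block, 0 genes passed between the labels after UUO (Cdt1, adjusted p = 0.0561), and Mybl2 no longer passed in SMOC2-labelled UUO (0.61, adjusted p = 0.0612). The numbers gave no pairing of libraries, since 1 of 12 same-numbered pairs had deviations correlated over 0.1 (range -0.09 to 0.13). The cause of these differences was not tested. Depth limits the scarce genes, of which Cdc25c, E2f8, Ccne1 and Cdc6 had at most 3 counts in some normal library.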
